A study of Mus musculus with 20 samples.

Results

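The genes described here are 42 parts of the folding and export machinery of the endoplasmic reticulum (ER), found by symbol among the 24393 genes of a mouse count table. They comprise 7 ER chaperones and co-chaperones, 4 disulfide isomerases, 3 collagen chaperones and 7 parts of the Sec61 channel and the TRAP complex. The rest are 2 signal peptidase subunits, 4 subunits of oligosaccharyltransferase, 5 genes of the COPII coat and collagen export, 3 KDEL receptors, 6 transcription factors of stress and secretion, and 1 gene of ER-associated degradation. All 42 were found and all 42 passed the filter on low counts, with at least 19 counts for every member in every library. RNA was sequenced from 3 cell populations, labelled Misc, FAP and SMP, of the quadriceps, tibialis anterior and gastrocnemius of DKO and WT mice. The 6 groups were Misc DKO and Misc WT with 4 libraries each, FAP DKO and FAP WT with 4 libraries each, and SMP DKO and SMP WT with 2 libraries each. The sources used here give neither the strain nor the age of the mice, nor which genes DKO refers to, nor how the cells were separated. The design text lists populations FAP, SMP and FB, the sample labels list FAP, SMP and Misc, and no label ties FB to Misc, so which cells the Misc values describe is not settled beyond the markers below. The series concerns the cell types that express extracellular matrix in fibrotic muscle.

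As background, proteins bound for secretion enter the ER through the Sec61 channel, lose their signal peptide, receive N-linked sugars from oligosaccharyltransferase and fold with the help of chaperones and disulfide isomerases. Collagen needs extra helpers in the ER, among them Serpinh1 (Hsp47), Fkbp10 and Crtap, and an enlarged COPII carrier organised by Mia3 (Tango1) to leave it. KDEL receptors return escaped chaperones from the Golgi, and the factors Xbp1, Atf6, Atf4 and Creb3l1 raise transcription of this machinery when the load on the ER grows. In muscle, fibro/adipogenic progenitors are mesenchymal cells known for making collagen, and satellite cells are the stem cells that repair fibres.

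Library totals lay between 5826000 and 17730111 counts, the SMP DKO libraries being the shallowest at 6124928 and 5826000, and libraries of a group correlated at 0.958 to 0.993 on the log scale, lowest in SMP DKO. Markers were checked against the labels as summed CPM, the count of a gene relative to the total of its library as scaled by TMM. The 6 fibro/adipogenic progenitor markers summed to 15200 to 23300 CPM in Misc and FAP libraries and to 765 to 3200 CPM in SMP libraries. The 8 myogenic markers summed to 1970 to 2060 CPM in SMP and to at most 138 CPM elsewhere. The 7 tendon markers summed to 50900 to 72400 CPM in Misc, between 698 and 5040 CPM in FAP and between 2630 and 5320 CPM in SMP. DKO is taken to mean loss of desmin (Des) and nesprin 1 (Syne1), which rests on background knowledge and is an assumption. Des was at 54.2 to 75.4 CPM in SMP DKO and 171 to 184 CPM in SMP WT, and Syne1 at 35.9 to 37 CPM in SMP DKO and 69.2 to 79.5 CPM in SMP WT, so neither was at 0 in the DKO libraries. Des was at 3.43 to 5.33 CPM in FAP DKO, against 14.2 to 18.3 CPM in FAP WT, and its Misc groups overlapped, with 1.37 to 2.27 CPM in Misc DKO and 2.16 to 4.74 CPM in Misc WT. Syne1 was at 59.2 to 75.5 CPM in Misc DKO, against 85.5 to 130 CPM in Misc WT, and its FAP groups overlapped, with 37.8 to 55.3 CPM in FAP DKO and 52.7 to 59.8 CPM in FAP WT.

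Sequences next to the transcription starts are shown because several members carry letters of known ER stress elements there. RefSeq promoter windows of GRCm38.p6, the assembly named mm10, covered 36 of the 42 members, running from 250 bases before to 50 after each start. Fkbp10, Sec61a1, Ssr2, Kdelr2, Atf6 and Creb3l1 had no window. Each motif was searched on both strands. The ER stress element ERSE (CCAAT and CCACG with 9 bases between them) was in 6 member windows, those of Calr, Canx, Dnajc3, Hsp90b1, Hspa5 and Pdia6, which is 16.7% of the 36, against 0.137% of the windows of 27025 genes. The unfolded protein response element UPRE (TGACGTGG) was in the windows of Kdelr3, Sec23a and Sec24d, which is 8.33%, against 0.714% of all genes. ERSE-II (ATTGG and CCACG with 1 base between them) was in the Herpud1 window, against 0.0444% of all genes, and the Atf4-type element CARE (TTGCATCA) was in the Herpud1 window too, against 1.03% of all genes. Most of these motifs share the letters CCACG or their complement, so they are not independent of each other. The list was chosen as ER genes and the motifs as known ER stress elements, so the larger shares among members are no independent finding. A match is a description of letters, not a measured binding site.

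The stretches below run 5′ to 3′ on the strand of the gene, with the fixed letters of the motif in capitals. They lie at chr2:34772005-34772063 (plus strand) for Hspa5, chr8:84847055-84847113 (minus strand) for Calr, chr11:50325780-50325838 (minus strand) for Canx and chr12:17266471-17266529 (plus strand) for Pdia6. Herpud1 is shown at chr8:94386297-94386407 (plus strand), with CARE first and ERSE-II after it, Kdelr3 at chr15:79516358-79516405 (plus strand) and Sec24d at chr3:123267450-123267497 (plus strand).
Hspa5: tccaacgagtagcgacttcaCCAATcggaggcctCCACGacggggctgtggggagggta
Calr: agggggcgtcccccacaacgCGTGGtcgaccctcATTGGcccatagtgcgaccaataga
Canx: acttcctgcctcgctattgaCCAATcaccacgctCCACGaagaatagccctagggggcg
Pdia6: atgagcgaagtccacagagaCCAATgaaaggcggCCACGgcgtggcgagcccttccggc
Herpud1: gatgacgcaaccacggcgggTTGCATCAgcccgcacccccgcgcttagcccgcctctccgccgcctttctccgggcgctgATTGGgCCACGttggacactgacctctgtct
Kdelr3: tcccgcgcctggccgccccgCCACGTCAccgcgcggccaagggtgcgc
Sec24d: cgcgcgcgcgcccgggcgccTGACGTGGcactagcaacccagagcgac

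The motif in Hspa5 began 65 bases before the start, in Pdia6 98, in Canx 145 and in Calr 162 bases before it. The Calr and Kdelr3 copies lie on the opposite strand and therefore read as the complement. In Herpud1, ERSE-II began 52 bases and CARE 112 bases before the start. The Sec24d copy began 26 bases before a start that lies inside the gene, whose span opens at chr3:123264801. The Sec23a copy began 6 bases after the start, within the transcript.

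The first question was how the machinery relates to the amount of matrix RNA that each population carries. Summed over the 42 genes, the machinery took 13798 to 19715 CPM in every library, whereas the 11 fibrillar collagen genes took 6317 CPM in the lowest library and 120646 CPM in the highest. The machinery sums were 14770, 17935, 16748 and 17145 CPM in Misc DKO, against 15335, 17261, 14040 and 15479 CPM in Misc WT. They were 14624, 17580, 16926 and 16939 CPM in FAP DKO, against 14385, 15779, 14342 and 13798 CPM in FAP WT. SMP DKO had 17742 and 19715 CPM, against 14220 and 15081 CPM in SMP WT. Only the SMP groups did not overlap in this sum. With 2 libraries a group that is common, as 27.4% of single genes tested lay above in SMP DKO without overlap and 28.3% below. A similar sum hid a different make-up, as Hspa5 was a larger part of it in SMP. For WT, Hspa5 averaged 5680 of a mean 14650 CPM in SMP, 3270 of 15530 CPM in Misc and 3170 of 14580 CPM in FAP. For DKO, these were 6670 of 18730, 4070 of 16650 and 4250 of 16520 CPM, in the same order. As a percentage of library counts, the machinery took 2.2 and 2.28 in SMP DKO. It took 1.65 and 1.78 in SMP WT, and 1.34 to 1.76 across the Misc and FAP libraries.

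Fibrillar collagen RNA was ordered quite differently. It summed to 70420 ± 12300 CPM in Misc DKO and 105400 ± 10300 CPM in Misc WT (SD, n = 4 each), without overlap. FAP DKO had 46530 ± 5540 CPM and FAP WT 57280 ± 7640 CPM (SD, n = 4 each), and these groups overlapped. SMP DKO had 6317 and 11525 CPM, on either side of the 9094 and 9878 CPM of SMP WT. Set against the machinery, Misc DKO carried 3.37 to 5.86 CPM of fibrillar collagen per CPM of machinery and Misc WT 5.84 to 7.79. FAP DKO had a ratio of 2.29 to 3.23 and FAP WT one of 3.61 to 4.65, without overlap. SMP DKO had ratios of 0.356 and 0.585, below the 0.64 and 0.655 of SMP WT. With 69 further secreted matrix genes added, the ratio averaged 14.6 ± 2.27 in Misc DKO and 17.7 ± 1.58 in Misc WT, and 9.21 ± 0.813 in FAP DKO and 10.7 ± 0.826 in FAP WT (SD, n = 4 each). On this wider measure the FAP groups overlapped, FAP DKO having ratios of 8.5 to 10.2 and FAP WT of 10.1 to 11.9, as did the Misc groups, and SMP DKO, at 1.42 and 2.26, reached the 2.26 and 2.37 of SMP WT. In bulk libraries, fewer cells of a type and less RNA per cell cannot be told apart.

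The chains of type I collagen, the main fibrillar collagen, carried this difference in Misc. There 7 of the 11 genes passed (3 higher and 4 lower in DKO), or 63.6% against 18.7% of all genes. Col1a1 averaged 23840 CPM in Misc DKO and 38160 CPM in Misc WT (log2 fold change −0.68 ± 0.20, edgeR adjusted p = 0.018). Col1a2 averaged 30280 CPM in Misc DKO and 52910 CPM in Misc WT (−0.81 ± 0.20, edgeR adjusted p = 0.005). Col3a1, the chain of type III collagen, averaged 9507 CPM in Misc DKO and 7613 CPM in Misc WT and did not pass the test (0.32 ± 0.16, edgeR adjusted p = 0.17). In FAP, 2 of the 11 genes passed, 1 higher and 1 lower in DKO, or 18.2% against 10.7% of all genes. Neither Col1a1 (−0.19 ± 0.20) nor Col3a1 (−0.42 ± 0.16) passed in FAP, where edgeR gave adjusted p = 0.6 and 0.094. In SMP, Col1a1 (−0.40 ± 0.28) and Col3a1 (0.36 ± 0.22) did not pass either, with edgeR adjusted p = 0.32 and 0.25. Other fibrillar genes did change there: 6 of 11 passed, or 54.5% against 23% of all genes. Of these, 4 were higher in SMP DKO (Col5a1, Col5a2, Col5a3 and Col27a1) and 2 lower (Col11a1 and Col24a1). Col5a3 averaged 573 CPM in SMP DKO and 303 CPM in SMP WT (0.92 ± 0.19, edgeR adjusted p = 0.0014), and Col11a1 92.8 CPM in SMP DKO and 266 CPM in SMP WT (−1.52 ± 0.22, 4.1e-05).

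**Figure D1:**
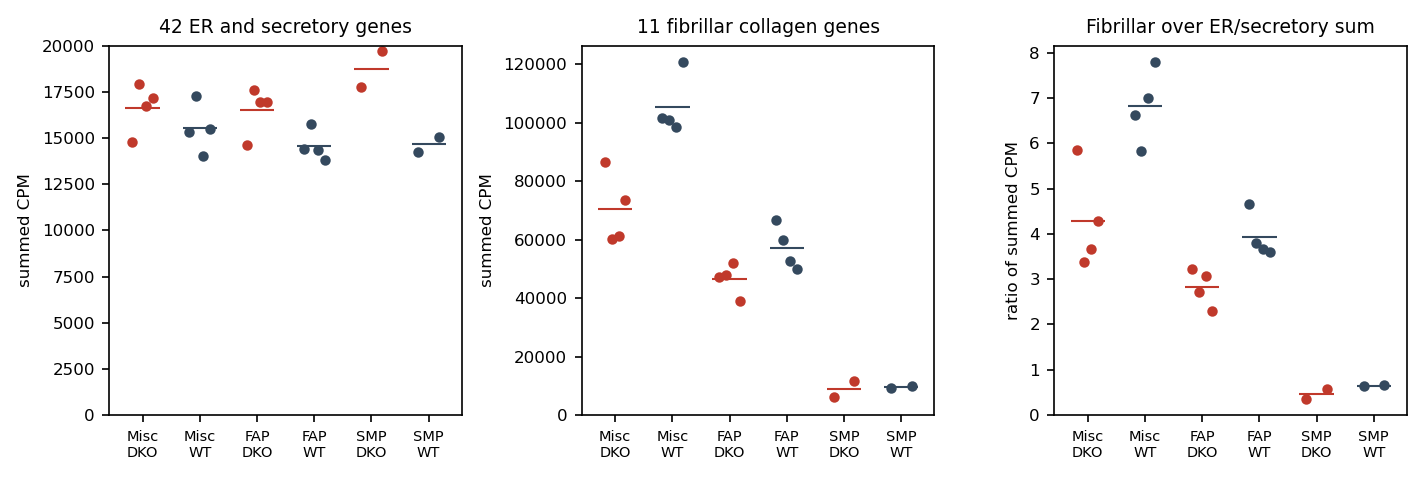
Summed CPM of the 42 ER and secretory genes, summed CPM of the 11 fibrillar collagen genes, and the ratio of the second sum to the first, by group. Each point is a library and each line the group mean, with DKO in red and WT in dark blue; the machinery sum stays between 13798 and 19715 CPM while the collagen sum spans 6317 to 120646 CPM.

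Levels of different members were compared per kilobase of transcript. Hspa5 (BiP), the Hsp70 chaperone of the ER lumen, was the most abundant member in all 6 groups, at 1290 CPM per kb in Misc DKO and 1040 in Misc WT, 1350 in FAP DKO and 1010 in FAP WT, and 2120 in SMP DKO and 1810 in SMP WT. Serpinh1, the chaperone specific to collagen, came next in Misc and FAP, at 921 CPM per kb in Misc DKO, 826 in Misc WT, 783 in FAP DKO and 753 in FAP WT. In SMP the second place went to Hsp90b1 (Grp94), the Hsp90 of the ER, at 805 CPM per kb in SMP DKO and 602 in SMP WT, and Serpinh1 had 578 and 357 CPM per kb in those groups. Sdf2l1, which works with Hspa5, was the least abundant member in all 6 groups, between 1.96 and 6.96 CPM per kb.

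Members differed between the collagen-rich populations and SMP in both directions, most of those called being higher in the collagen-rich populations. Between Misc and SMP, 27 of the 42 members passed the test in DKO (20 higher and 7 lower in Misc), or 64.3%. Of all 14179 genes tested, 59.5% did (29.8% higher and 29.7% lower). The DKO count lay near the background share and by itself is no result about the list. In WT, 34 passed (30 higher and 4 lower in Misc), or 81%, against 60.6% of all genes (30.6% higher and 30% lower). The median log2 difference over the 42 members was 0.14 in DKO and 0.77 in WT, beside 0.03 over all genes in each genotype. Transcript length moved with this comparison. Genes of up to 2084 bases had medians of 0.14 in DKO and 0.24 in WT, and genes of 3551 bases and more −0.10 and −0.14. The 19 members in the short class had medians of 0.55 in DKO and 1.05 in WT, and the other members 0.10 and 0.63. The part of length was not tested. Calls were made at an adjusted p below 0.05 in edgeR's quasi-likelihood test. The design text calls the replicates biological but no label ties a library to an animal, so the p-values measure the spread between these libraries, which may be technical.

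Collagen helpers and export genes were higher in Misc than in SMP in both genotypes. Crtap (chr9:114375131-114390712), part of the collagen prolyl 3-hydroxylation complex, had 227, 177, 180 and 195 CPM in Misc DKO, against 43.2 and 62.1 CPM in SMP DKO. Its Misc WT libraries had 187, 210, 182 and 255 CPM, against 49 and 57.2 CPM in SMP WT. Every Misc library was above every SMP library, and the log2 fold changes were 1.89 ± 0.16 in DKO and 1.97 ± 0.16 in WT (edgeR adjusted p = 9.3e-10 and 3e-10). Fkbp10, a peptidyl-prolyl isomerase for collagen, had 215, 142, 129 and 183 CPM in Misc DKO, against 41.5 and 54.7 CPM in SMP DKO, and 168, 175, 178 and 199 CPM in Misc WT, against 41.5 and 45.1 CPM in SMP WT. The groups again stood apart, by 1.80 ± 0.17 in DKO and 2.06 ± 0.17 in WT (edgeR adjusted p = 6.6e-09 and 5.5e-10).

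Kdelr3, a receptor that returns chaperones to the ER, showed the largest difference among the 3 KDEL receptors. It had 105, 90.9, 88 and 89.5 CPM in Misc DKO, against 19.6 and 31 CPM in SMP DKO, and 125, 123, 93.1 and 125 CPM in Misc WT, against 20.3 and 21.7 CPM in SMP WT. Its log2 fold changes were 1.89 ± 0.17 in DKO and 2.47 ± 0.17 in WT (edgeR adjusted p = 2.4e-09 and 2.1e-11), and all 3 receptors passed in both genotypes. All 5 COPII and export genes were higher as well, with medians of 0.84 in DKO and 1.16 in WT. Sec24d, the cargo-binding subunit of the coat, had 266 to 294 CPM in Misc DKO and 119 to 124 CPM in SMP DKO, with 295 to 313 CPM in Misc WT and 112 to 116 CPM in SMP WT.

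Creb3l1 (OASIS), an ER-anchored factor known in mouse bone for driving type I collagen, showed the largest difference in WT. The gene lies at chr2:91982328-92024170 of GRCm38.p6. It had 153, 133, 151 and 154 CPM in Misc DKO, against 41 and 61.2 CPM in SMP DKO, and 236, 246, 227 and 266 CPM in Misc WT, against 33.2 and 28.8 CPM in SMP WT. The groups did not overlap, and the log2 fold changes were 1.53 ± 0.15 in DKO and 2.97 ± 0.16 in WT (edgeR adjusted p = 6.5e-09 and 2e-13).

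Hspa5, Canx and the stress factors Atf6 and Xbp1 ran the other way, and of the 7 ER chaperones 3 were lower in Misc in DKO, while in WT 2 were lower and 1 was higher. Hspa5 had 3130, 4840, 4070 and 4230 CPM in Misc DKO, against 6050 and 7280 CPM in SMP DKO, and 2810, 4080, 2930 and 3250 CPM in Misc WT, against 5520 and 5830 CPM in SMP WT. Every Misc library was below every SMP library, by −0.71 ± 0.17 in DKO and −0.80 ± 0.17 in WT (edgeR adjusted p = 0.0012 and 0.00036). Atf6, the stress sensor that is released as a transcription factor, had 70.9, 102, 88.2 and 84 CPM in Misc DKO, against 222 and 192 CPM in SMP DKO, and 77.6, 86.1, 74.9 and 66.1 CPM in Misc WT, against 168 and 146 CPM in SMP WT. It was lower in Misc by −1.26 ± 0.13 in DKO and −1.04 ± 0.13 in WT (edgeR adjusted p = 1.2e-08 and 1.8e-07). Canx (calnexin), a lectin chaperone of the ER membrane, and Xbp1, whose spliced form is a stress factor, were lower in both genotypes too. Canx differed by −0.73 ± 0.15 in DKO and −0.39 ± 0.15 in WT, and the WT call was lost without the filter on low counts (edgeR adjusted p = 0.071) and without any of 5 libraries (0.055 to 0.17). Xbp1 differed by −0.53 ± 0.13 in DKO and −0.35 ± 0.13 in WT, and its WT call was lost in 6 alternatives (edgeR adjusted p up to 0.11). The 9 cytosolic chaperones, which are not ER proteins, also summed higher in SMP, with 19100 to 29200 CPM in Misc DKO and 33600 to 34500 CPM in SMP DKO, and 18200 to 23800 CPM in Misc WT and 44400 to 48800 CPM in SMP WT. Immediate early and dissociation genes summed to 42600 to 55500 CPM in Misc DKO and 36000 to 41000 CPM in SMP DKO, and to 39500 to 47900 CPM in Misc WT and 60400 to 70200 CPM in SMP WT. Pericyte and smooth muscle markers summed to 91.4 to 154 CPM in Misc DKO and 993 to 1080 CPM in SMP DKO, and to 168 to 215 CPM in Misc WT and 1370 to 1390 CPM in SMP WT, with 5 of 6 lower in Misc in each genotype. Schwann cell markers summed to 11 to 17.8 CPM in Misc DKO and 183 to 256 CPM in SMP DKO, and to 21.2 to 28.5 CPM in Misc WT and 293 to 304 CPM in SMP WT, with 4 of 5 lower. The part of these lists in the result was not tested.

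Collagen helpers and export genes were higher in FAP than in SMP as well. In DKO, 30 passed (22 higher and 8 lower in FAP), or 71.4%, against 58.8% of all genes (29.2% higher and 29.6% lower). In WT, 32 passed (29 higher and 3 lower), or 76.2%, against 62.3% (31.1% higher and 31.3% lower). The median log2 difference was 0.32 in DKO and 0.67 in WT, beside 0.00 and −0.02 over all genes. By transcript length, genes of up to 2084 bases had medians of 0.11 in DKO and 0.25 in WT, and genes of 3551 bases and more −0.14 and −0.24. The 19 short members had medians of 0.35 in DKO and 1.01 in WT, and the other members 0.06 and 0.62. The part of length was not tested here either. The members higher in both genotypes numbered 22 and included all 3 collagen chaperones, all 3 KDEL receptors, both signal peptidase subunits and all 5 export genes. The share of all genes higher in both genotypes was not counted. Kdelr3 had 69.9 to 96.7 CPM in FAP DKO and 85.5 to 95.9 CPM in FAP WT, which put it above SMP by 1.65 ± 0.17 in DKO and 2.08 ± 0.17 in WT (edgeR adjusted p = 1.8e-08 and 2.3e-10). Rpn2, a subunit of oligosaccharyltransferase, had 309, 295, 292 and 295 CPM in FAP DKO, against 113 and 159 CPM in SMP DKO, and 355, 336, 338 and 305 CPM in FAP WT, against 93.4 and 115 CPM in SMP WT. It was higher in FAP by 1.13 ± 0.13 and 1.68 ± 0.14 (edgeR adjusted p = 1.2e-07 and 2e-10). Hspa5, Hsp90b1 and Atf6 were lower in FAP in both genotypes. Hsp90b1 had 1170, 1490, 1490 and 1590 CPM in FAP DKO, against 2280 and 2270 CPM in SMP DKO, and 1170, 1350, 1130 and 1120 CPM in FAP WT, against 1600 and 1810 CPM in SMP WT. Its log2 fold changes were −0.67 ± 0.16 in DKO and −0.51 ± 0.17 in WT (edgeR adjusted p = 0.0013 and 0.0092), and the WT call was lost without SMP WT replicate 2 (0.099). Pdia4, a disulfide isomerase, passed in opposite directions, at −0.35 ± 0.15 in DKO and 0.37 ± 0.15 in WT (edgeR adjusted p = 0.044 and 0.038). Pericyte and smooth muscle markers were at 68.8 to 112 CPM in FAP DKO and 105 to 185 CPM in FAP WT, and Schwann cell markers at 8.71 to 29.5 CPM in FAP DKO and 18.7 to 58.5 CPM in FAP WT, all below the SMP sums given above, and their part was not tested.

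**Figure D2:**
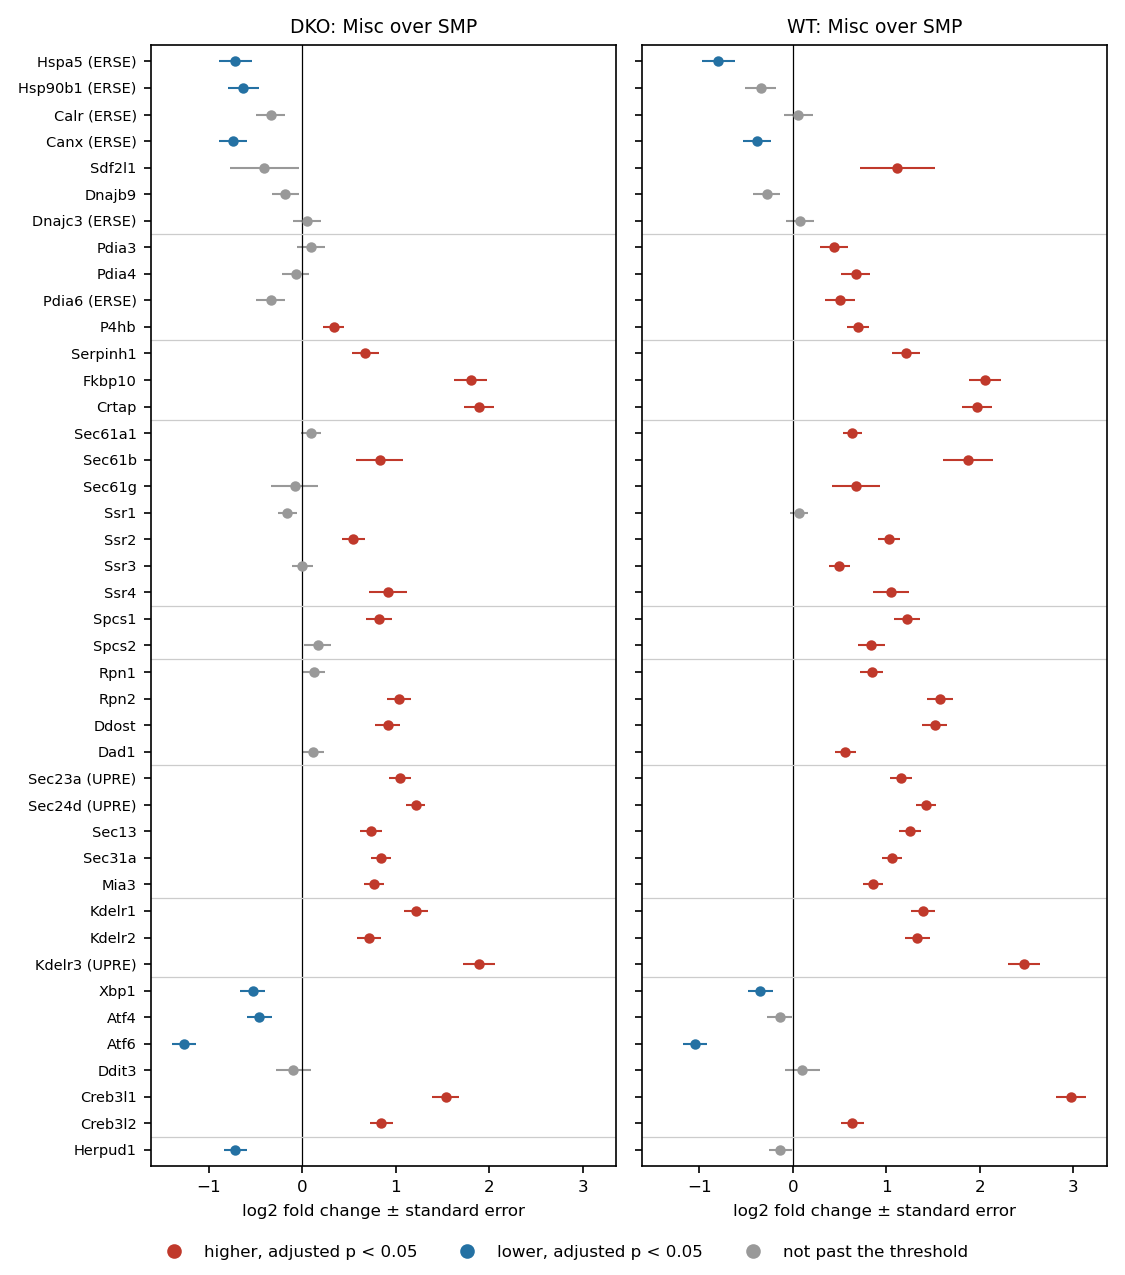
Log2 fold change of Misc over SMP for each of the 42 members in DKO (left) and WT (right), in rows grouped by role, with bars of 1 standard error. Red and blue points passed an adjusted p of 0.05 as higher or lower, grey points did not, and members whose promoter window holds ERSE or UPRE are marked; Creb3l1 reaches 2.97 in WT while Hspa5 and Atf6 lie below 0.

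Members with ERSE letters and members with UPRE letters sat at different places in this comparison. Among the 6 with ERSE, 3 were lower in Misc than in SMP in DKO (Hspa5, Hsp90b1 and Canx), and in WT 2 were lower (Hspa5 and Canx) and 1 was higher (Pdia6, by 0.51 ± 0.16). The 3 with UPRE were higher in Misc in both genotypes, Kdelr3 by the values above, Sec23a by 1.04 ± 0.12 in DKO and 1.16 ± 0.12 in WT, and Sec24d by 1.21 ± 0.10 and 1.43 ± 0.10. The grouping also follows role, the ERSE members being chaperones and an isomerase. All 3 KDEL receptors and all 5 COPII and export genes were higher in Misc in both genotypes, whether or not UPRE was found. This grouping was made with the values in view and carries no test.

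Misc and FAP, the populations with most collagen RNA, differed in fewer members. In DKO, 8 passed (6 higher and 2 lower in Misc), or 19%, against 29.7% of all genes (13.7% higher and 16% lower). In WT, 11 passed (10 higher and 1 lower), or 26.2%, against 36.9% (17.6% higher and 19.3% lower). The median over the members was 0.04 in each genotype, beside 0.02 in DKO and −0.01 in WT over all genes. Libraries that carry 1 replicate number deviated together in these populations, so they were also compared as pairs. With that replicate block, 15 members passed in DKO (10 higher and 5 lower), against 38.8% of all genes, and 19 in WT (15 higher and 4 lower), against 46.3%. Leaving out Misc DKO replicate 3, FAP DKO replicate 4 or Misc DKO replicate 4 left 5 calls in DKO.

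Without the block, 6 members were higher in Misc in both genotypes, namely Crtap, Fkbp10, Creb3l1, Sec23a, Sec24d and Sec31a, which are collagen helpers, a collagen-linked factor and COPII genes. The share of all genes called in both genotypes was not counted. As the member shares within each genotype lay below the background, this count is no result about the list. The paired comparison added the isomerase Pdia4 (0.27 ± 0.07 in DKO and 0.32 ± 0.07 in WT, edgeR adjusted p = 0.002 and 0.00029) and the receptor Kdelr3 (0.24 ± 0.08 and 0.40 ± 0.08, edgeR adjusted p = 0.019 and 0.00012). Crtap, with the Misc values given above, had 125, 116, 96.8 and 118 CPM in FAP DKO and 108, 109, 105 and 106 CPM in FAP WT. No Misc library overlapped with FAP, and the log2 fold changes of Misc over FAP were 0.77 ± 0.12 in DKO and 0.96 ± 0.12 in WT (edgeR adjusted p = 1.5e-05 and 4.3e-07). Fkbp10 had 128, 112, 107 and 102 CPM in FAP DKO and 135, 114, 112 and 114 CPM in FAP WT. Its Misc libraries were all higher, by 0.57 ± 0.13 in DKO and 0.60 ± 0.13 in WT (edgeR adjusted p = 0.0012 and 0.00047). Sec23a, the inner-coat subunit, had 139, 150, 150 and 138 CPM in Misc DKO, against 116, 110, 131 and 128 CPM in FAP DKO, and 197, 174, 163 and 183 CPM in Misc WT, against 141, 129, 121 and 135 CPM in FAP WT. The groups did not overlap, and the differences were 0.25 ± 0.09 in DKO and 0.45 ± 0.09 in WT (edgeR adjusted p = 0.04 and 0.00025). The DKO call of Sec23a was lost in 10 alternatives, with adjusted p between 0.051 and 0.13 and among them the replicate number as a block over all groups (0.055), but held when paired within DKO (0.244 ± 0.072, edgeR adjusted p = 0.0079).

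Atf4, the translation-controlled factor of the integrated stress response, was lower in Misc in both genotypes. It had 667, 665, 544 and 711 CPM in Misc DKO, against 827, 916, 821 and 927 CPM in FAP DKO, and 562, 739, 634 and 674 CPM in Misc WT, against 669, 837, 889 and 818 CPM in FAP WT. The groups stood apart in DKO (−0.43 ± 0.11, edgeR adjusted p = 0.0046) and overlapped in WT (−0.30 ± 0.11, 0.039). The WT call was lost without 1 of 6 libraries (adjusted p between 0.077 and 0.14) and without the filter (0.056). The paired comparison also called Atf6 lower in Misc in both genotypes (−0.29 ± 0.07 in DKO and −0.25 ± 0.07 in WT, edgeR adjusted p = 0.0022 and 0.005). Beside all these differences the tendon markers were higher in Misc, with sums of 50900 to 72400 CPM in Misc DKO against 3150 to 5040 CPM in FAP DKO, and 51500 to 55000 CPM in Misc WT against 698 to 943 CPM in FAP WT. The tendon markers Tnmd, Kera, Fmod, Comp and Thbs4 are also among the 69 further secreted matrix genes, as is the progenitor marker Dcn. These marker sums and the wider matrix sum therefore share genes. The part of the tendon markers in the result was not tested.

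DKO changed few members in the stromal populations. In Misc, 7 of 42 passed (3 higher and 4 lower in DKO), or 16.7%, against 18.7% of all genes (9.15% higher and 9.55% lower), with a median of 0.05 beside 0.01 over all genes. In FAP, 3 passed (2 higher and 1 lower), or 7.14%, against 10.7% of all genes (5.58% higher and 5.14% lower), with a median of 0.06 beside −0.01. These shares lay at or below the background and are no result about the list. Creb3l1 had the largest called change in Misc, and Dnajb9 in FAP. Without Misc WT replicate 1 the Misc count was 2, and without Misc DKO replicate 2, Misc WT replicate 2, Misc DKO replicate 4 or Misc WT replicate 4 it was 4. The FAP count was 1 without FAP WT replicate 1, FAP WT replicate 2 or FAP DKO replicate 4, and 5 without FAP DKO replicate 1.

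Creb3l1, with the Misc values given above, was lower in every Misc DKO library than in any Misc WT library (mean 148 ± 10.1 CPM in Misc DKO and 244 ± 16.6 CPM in Misc WT; SD, n = 4 each; log2 fold change −0.72 ± 0.11, edgeR adjusted p = 4.5e-05). Misc DKO thereby overlapped with FAP WT. In FAP it had 98.2, 119, 113 and 96.5 CPM in FAP DKO, against 156, 142, 127 and 124 CPM in FAP WT, again without overlap (−0.37 ± 0.11, edgeR adjusted p = 0.032). The FAP call was lost without FAP DKO replicate 1, FAP WT replicate 1, FAP WT replicate 2 or FAP DKO replicate 4, with adjusted p between 0.078 and 0.13, and the Misc call held in all alternatives run.

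Its relative Creb3l2 (BBF2H7), known in mouse cartilage for driving COPII genes, went the other way. Creb3l2 had 91.3, 107, 125 and 104 CPM in Misc DKO, against 88.3, 92.1, 92.3 and 77 CPM in Misc WT, and these groups overlapped in 1 DKO library (0.29 ± 0.10, edgeR adjusted p = 0.043). It had 95.5, 99.6, 109 and 89.7 CPM in FAP DKO, against 80.5, 68.7, 70.6 and 82.8 CPM in FAP WT, without overlap (0.38 ± 0.10, edgeR adjusted p = 0.013). The Misc call was lost in 8 alternatives (adjusted p between 0.071 and 0.19), and the FAP call without FAP WT replicate 2 (0.056) or FAP DKO replicate 3 (0.052).

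Of the 5 export genes 2 fell in Misc DKO, and of the 3 KDEL receptors 1. Sec23a, with the values above, fell by 0.31 ± 0.09 on the log2 scale (edgeR adjusted p = 0.015), without overlap. Mia3, which packs collagen into COPII carriers, had 178, 206, 216 and 184 CPM in Misc DKO, against 243, 234, 230 and 239 CPM in Misc WT, also without overlap (−0.27 ± 0.08, edgeR adjusted p = 0.022). Kdelr2 had 151, 129, 132 and 138 CPM in Misc DKO, against 184, 186, 147 and 176 CPM in Misc WT, with 1 library of each group crossing over (−0.33 ± 0.10, edgeR adjusted p = 0.022). Each of these calls was lost without Misc WT replicate 1, with adjusted p of 0.066 for Sec23a, 0.061 for Mia3 and 0.069 for Kdelr2. Kdelr2 was also lost without Misc DKO replicate 2 (0.064) or Misc WT replicate 2 (0.054), and Mia3 with only the compared groups (0.064). In FAP the same genes did not pass, at −0.11 ± 0.09 for Sec23a, −0.09 ± 0.08 for Mia3 and −0.10 ± 0.10 for Kdelr2.

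Of the 7 Sec61 and TRAP genes 1 rose in Misc DKO, and of the 4 oligosaccharyltransferase subunits 1. Sec61a1, the pore of the Sec61 channel (chr6:88503607-88518800), had 296, 319, 269 and 326 CPM in Misc DKO, against 243, 245, 251 and 253 CPM in Misc WT, without overlap (0.29 ± 0.08, edgeR adjusted p = 0.018). Dad1, a small subunit of oligosaccharyltransferase, had 51.6, 51.4, 55.8 and 62.8 CPM in Misc DKO, against 43.1, 48, 44.3 and 43.5 CPM in Misc WT, without overlap (0.31 ± 0.09, edgeR adjusted p = 0.018). Both calls were lost without Misc DKO replicate 4, at adjusted p of 0.099 for Sec61a1 and 0.12 for Dad1, and in other alternatives at 0.053 to 0.07. Fibro/adipogenic progenitor markers summed to 15200 to 16900 CPM in Misc DKO and 21000 to 21800 CPM in Misc WT. Mature muscle fibre markers summed to 44 to 85.7 CPM in Misc DKO and 30.1 to 37.2 CPM in Misc WT, 4 of 8 being higher, and endothelial markers to 43.1 to 61.2 CPM in Misc DKO and 83 to 113 CPM in Misc WT. Pericyte and smooth muscle markers summed to 91.4 to 154 CPM in Misc DKO and 168 to 215 CPM in Misc WT, and plasma cell markers to 59.6 to 74.3 CPM in Misc DKO and 110 to 131 CPM in Misc WT. Of the 6 plasma cell markers, 2 were at 0 in all Misc DKO libraries and 1 in all Misc WT libraries. Of the 12 immediate early and dissociation genes 7 passed, 2 higher and 5 lower, or 58.3% against 18.7% of all genes. The part of these lists in the results was not tested.

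In FAP, Dnajb9 (ERdj4), a co-chaperone of Hspa5 induced by ER stress, was the other member to rise. It had 282, 364, 295 and 344 CPM in FAP DKO, against 196, 264, 260 and 235 CPM in FAP WT, without overlap (0.43 ± 0.12, edgeR adjusted p = 0.022). The call was lost without FAP WT replicate 1, FAP DKO replicate 2, FAP DKO replicate 4 or FAP WT replicate 4, with adjusted p between 0.055 and 0.1. Hspa5 had 3410, 4440, 4550 and 4620 CPM in FAP DKO, against 2650, 3670, 3210 and 3150 CPM in FAP WT, and the groups overlapped (0.42 ± 0.15, edgeR adjusted p = 0.063). It passed with the replicate number as a block (edgeR adjusted p = 0.015), without FAP DKO replicate 1 (0.024), with only the compared groups (0.02) and in DESeq2's Wald test (0.03), and reached adjusted p up to 0.2 without other libraries. Xbp1 had 176, 257, 234 and 217 CPM in FAP DKO, against 175, 182, 179 and 175 CPM in FAP WT (0.31 ± 0.11, edgeR adjusted p = 0.074). Ddit3 (Chop), a factor of the terminal stress response, had 28.8, 49.5, 41.7 and 41.5 CPM in FAP DKO, against 27.9, 31.4, 29 and 29.7 CPM in FAP WT (0.45 ± 0.15, edgeR adjusted p = 0.065). In each of these, FAP DKO replicate 1 was the lowest library of its group and the other DKO libraries lay above all WT libraries. Without that library Xbp1 passed (edgeR adjusted p = 0.015), as did Ddit3 (0.0096). Tendon markers summed to 3150 to 5040 CPM in FAP DKO, against 698 to 943 CPM in FAP WT, and endothelial markers to 140 to 223 CPM in FAP DKO, against 297 to 355 CPM in FAP WT. Of the 12 immediate early and dissociation genes 7 passed, 1 higher and 6 lower, or 58.3% against 10.7% of all genes. The part of these lists in the results was not tested.

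In Misc the same stress genes did not pass. Hspa5, listed above, differed by 0.32 ± 0.14 (edgeR adjusted p = 0.14). Xbp1 had 149, 216, 220 and 184 CPM in Misc DKO, against 159, 162, 158 and 167 CPM in Misc WT (0.25 ± 0.11, edgeR adjusted p = 0.13). Ddit3 had 25, 43.5, 34.4 and 40 CPM in Misc DKO, against 28.7, 34.3, 24.1 and 30.3 CPM in Misc WT (0.28 ± 0.15, edgeR adjusted p = 0.22). Serpinh1 showed no call in either stromal population, with 2050, 2030, 1830 and 2180 CPM in Misc DKO, against 1900, 1800, 1700 and 1850 CPM in Misc WT (0.16 ± 0.11, edgeR adjusted p = 0.38). In FAP it had 1510, 2080, 1730 and 1550 CPM in FAP DKO, against 1920, 1760, 1510 and 1420 CPM in FAP WT (0.06 ± 0.11, edgeR adjusted p = 0.81).

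**Figure D3:**
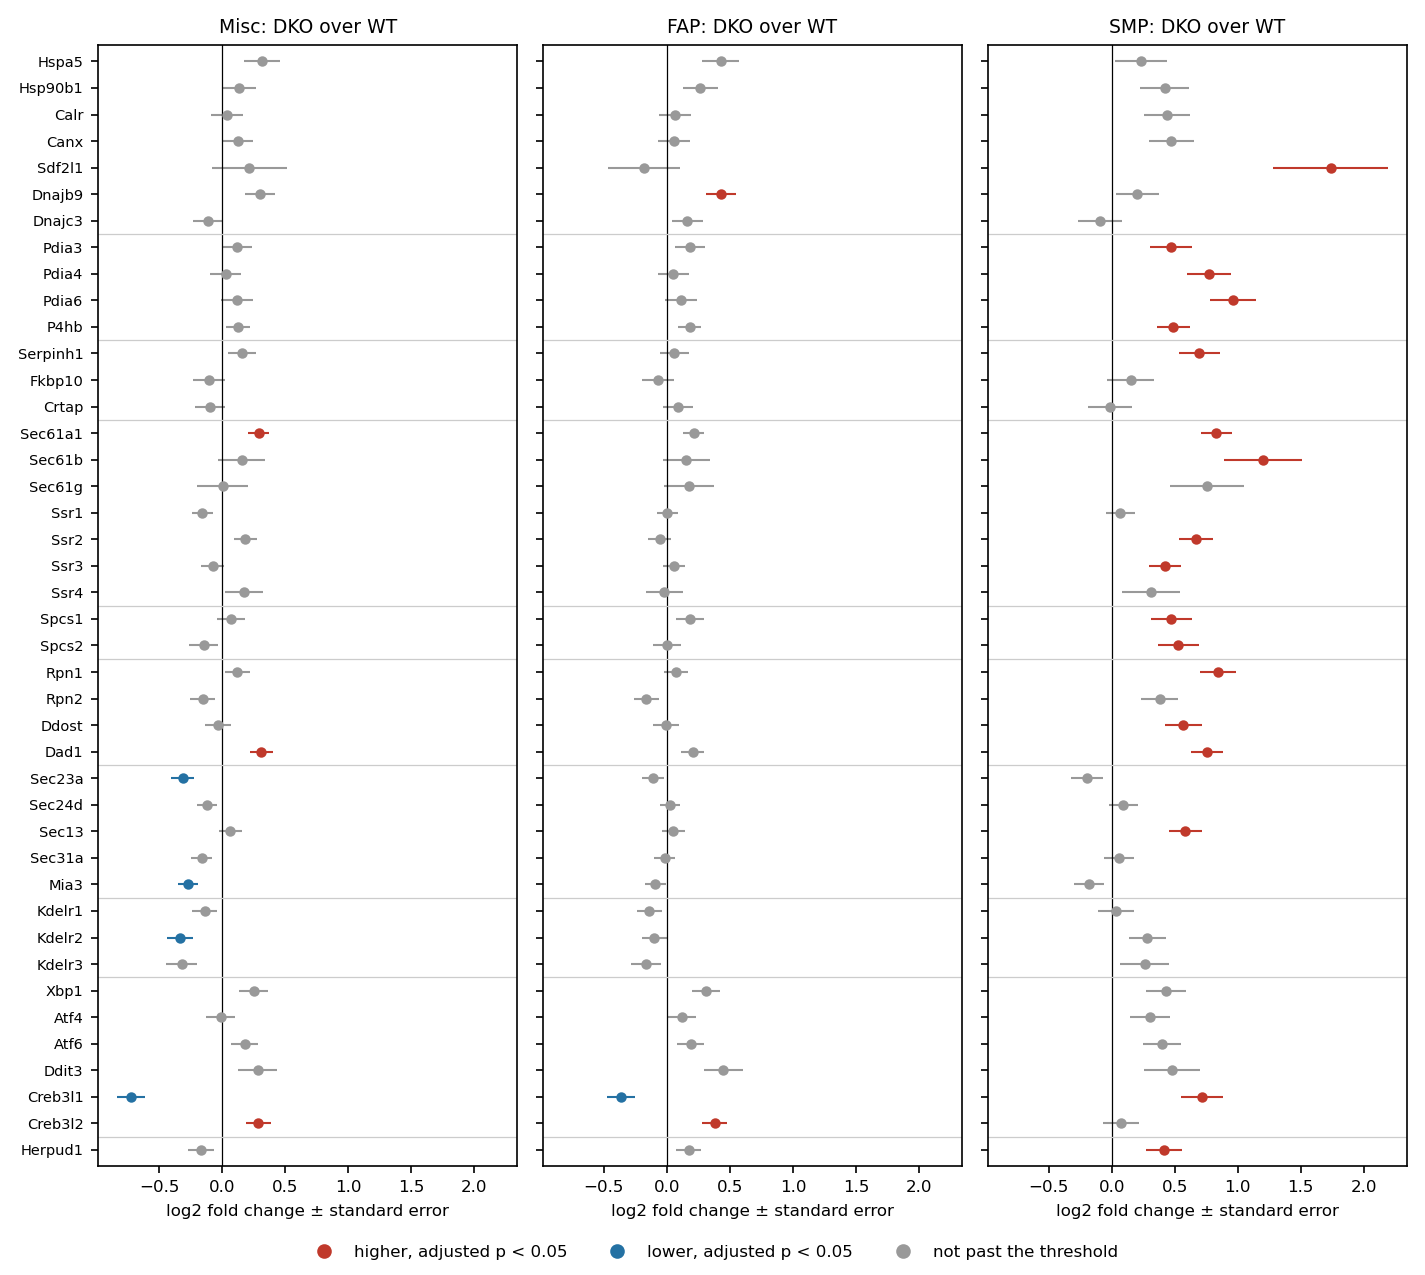
Log2 fold change of DKO over WT for each of the 42 members in Misc, FAP and SMP, in rows grouped by role and separated by grey lines, with bars of 1 standard error. Red and blue points passed an adjusted p of 0.05 as higher or lower and grey points did not; 7 members passed in Misc, 3 in FAP and 18, all higher, in SMP, and Creb3l1 lies below 0 in Misc and FAP and above 0 in SMP.

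In SMP, 18 of the 42 members passed, all of them higher in DKO. That is 42.9% of the list, against 23% of all genes in either direction and 11.8% of all genes as higher, and the median was 0.43 beside 0.01 over all genes. By role, 4 of 4 disulfide isomerases rose, 4 of 7 Sec61 and TRAP genes, both signal peptidase subunits, 3 of 4 oligosaccharyltransferase subunits, 1 of 3 collagen chaperones, 1 of 5 export genes, 1 of 7 ER chaperones, 1 of 6 transcription factors and the degradation gene Herpud1. None of the 3 KDEL receptors passed. The count rests on 2 libraries a group: it was 9 without SMP WT replicate 1, 11 without SMP DKO replicate 2, where the lone library is assumed to vary like the other groups, and 8 when the other populations were left out of the fit.

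Sec61a1 had 282 and 285 CPM in SMP DKO, against 161 and 158 CPM in SMP WT (0.83 ± 0.12, edgeR adjusted p = 4.4e-05). SMP DKO thereby lay in the range of the stromal libraries, and SMP WT below all of them. Sec61b, another subunit of the channel, had 15.2 and 12.1 CPM in SMP DKO, against 5.43 and 6.49 CPM in SMP WT (1.20 ± 0.31, edgeR adjusted p = 0.0081). Its call was lost without SMP DKO replicate 1 (0.061) or SMP WT replicate 1 (0.07). Rpn1, an oligosaccharyltransferase subunit, had 140 and 154 CPM in SMP DKO, against 80.1 and 83.9 CPM in SMP WT (0.84 ± 0.14, edgeR adjusted p = 0.0002). In all 3 genes the DKO libraries lay above the WT libraries. With 2 libraries a group that is common: 27.4% of all genes tested lay above in SMP DKO without overlap, and 28.3% below.

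The isomerases Pdia6 and Pdia4 rose in the same way. Pdia6 had 245 and 234 CPM in SMP DKO, against 115 and 131 CPM in SMP WT (0.96 ± 0.18, edgeR adjusted p = 0.00071). Pdia4 had 162 and 168 CPM in SMP DKO, against 91.5 and 102 CPM in SMP WT (0.77 ± 0.17, edgeR adjusted p = 0.0031). Serpinh1 had 1250 and 1290 CPM in SMP DKO, against 813 and 753 CPM in SMP WT (0.70 ± 0.16, edgeR adjusted p = 0.004), while Crtap (−0.01 ± 0.17) and Fkbp10 (0.15 ± 0.19) did not pass. Sdf2l1 had the largest fold change and the fewest counts, at 7.91 and 6.52 CPM in SMP DKO, against 1.54 and 2.81 CPM in SMP WT (1.74 ± 0.46, edgeR adjusted p = 0.0091). That call was lost without SMP WT replicate 1 (0.1) and with only the compared groups in the fit (0.055).

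Creb3l1 rose in SMP, at 41 and 61.2 CPM in SMP DKO, against 33.2 and 28.8 CPM in SMP WT (0.72 ± 0.17, edgeR adjusted p = 0.0036). The call was lost without SMP DKO replicate 2 (0.13) and with only the compared groups (0.092). SMP DKO replicate 2 also carried more fibrillar collagen RNA than replicate 1, at 11525 against 6317 CPM. Over all matrix genes it had 44638 CPM, against 25136 CPM in replicate 1. The part of this difference in the Creb3l1 result was not tested. The chaperone Hspa5 did not pass (0.23 ± 0.21, edgeR adjusted p = 0.44). Its SMP DKO libraries, listed above, lay above those of SMP WT, as in 27.4% of all genes tested. Xbp1 had 283 and 271 CPM in SMP DKO, against 205 and 207 CPM in SMP WT (0.43 ± 0.16), just short of the threshold, and passed in 4 alternatives, with adjusted p down to 0.027 in DESeq2's Wald test. Ddit3 had 42.2 and 33.9 CPM in SMP DKO, against 27.2 and 27.4 CPM in SMP WT (0.48 ± 0.22, edgeR adjusted p = 0.12).

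Several marker lists moved with the SMP groups. All 8 mature muscle fibre markers were higher in SMP DKO, with sums of 183 to 562 CPM in SMP DKO and 32.9 to 48.8 CPM in SMP WT. The 6 leukocyte markers summed to 31.1 CPM in one SMP DKO library and 575 CPM in the other, and to 19.1 and 26.2 CPM in SMP WT, with 4 of 6 higher. The 6 markers of plasma cells, a cell type rich in ER, summed to 87.2 to 88.7 CPM in SMP DKO and 38.7 to 39.4 CPM in SMP WT. Nearly all of that was Sdc1, at 85.9 and 85.3 CPM in SMP DKO and 37.4 and 35.3 CPM in SMP WT, and Mzb1 was at 0 in both SMP DKO libraries. The 6 fibro/adipogenic progenitor markers summed to 765 CPM in 1 SMP DKO library and 3200 CPM in the other. These lay on either side of the 1420 and 1620 CPM of SMP WT. Of these 6 markers 3 were higher, and of the 7 tendon markers 4 were lower. Beside the counts in this paragraph, 11.8% of all genes passed as higher in SMP DKO and 11.2% as lower. Immediate early and dissociation genes fell, 10 of 12 being lower, with sums of 36000 to 41000 CPM in SMP DKO and 60400 to 70200 CPM in SMP WT. Of 9 cytosolic chaperones 3 fell, namely Dnajb1 (−1.16 ± 0.15), Hsph1 (−0.68 ± 0.23) and Hsp90aa1 (−0.66 ± 0.21). Transcript length moved with the SMP comparison too: the median log2 fold change was 0.18 over genes of up to 2084 bases and −0.12 over genes of 3551 bases and more. The 19 members in the short class had a median of 0.43 and the other members 0.42. The part of the cell markers and the dissociation genes in the SMP result was not tested.

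Whether DKO acted differently in the populations was tested directly, as the difference of the log2 changes. Between Misc and FAP no member passed in edgeR (0, against 2.79% of all genes, 1.42% higher and 1.37% lower) or in DESeq2 (0), with 2 members at an unadjusted p below 0.05, and paired within genotype 1 passed, Herpud1, against 8.63% of all genes. Between FAP and SMP 11 passed, against 10.3% of all genes (4.92% higher and 5.42% lower). Between Misc and SMP 11 passed, against 8.94% (4.61% higher and 4.34% lower). All of these changes were lower in the stromal population than in SMP. The pairs share the SMP libraries and are not independent of each other. The FAP and SMP count was 3 without SMP WT replicate 1, 6 without SMP DKO replicate 2, and 7 without FAP WT replicate 1 or FAP DKO replicate 4. The Misc and SMP count was 2 without SMP WT replicate 1, 4 without SMP DKO replicate 2, 5 without Misc WT replicate 1 and 7 without SMP WT replicate 2.

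Creb3l1 showed a difference of −1.44 between its DKO change in Misc and that in SMP (edgeR adjusted p = 4.5e-05), and of −1.08 between FAP and SMP (0.001). Of the 7 Sec61 and TRAP genes 2 passed against each stromal population, and of the 4 oligosaccharyltransferase subunits 3 passed between FAP and SMP and 2 between Misc and SMP. Of 22 further translocation and glycosylation genes 1 passed in each, or 4.55%, below the shares of all genes. Rpn1 differed by −0.77 between FAP and SMP (edgeR adjusted p = 0.0053) and by −0.72 between Misc and SMP (0.0087). Sec61a1 differed by −0.62 between FAP and SMP (edgeR adjusted p = 0.0086) and by −0.54 between Misc and SMP (0.021), the second being lost in 4 alternatives (0.053 to 0.083). Ssr2, a subunit of the TRAP complex, had 80.7, 95.4, 82.9 and 81.2 CPM in FAP DKO, against 96.8, 97.8, 84.6 and 74.8 CPM in FAP WT, and 66.4 and 67.9 CPM in SMP DKO, against 38.5 and 46 CPM in SMP WT. Its FAP groups overlapped and its SMP groups did not, and the difference was −0.73 (edgeR adjusted p = 0.0068), lost without SMP WT replicate 1 (0.06).

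**Figure D4:**
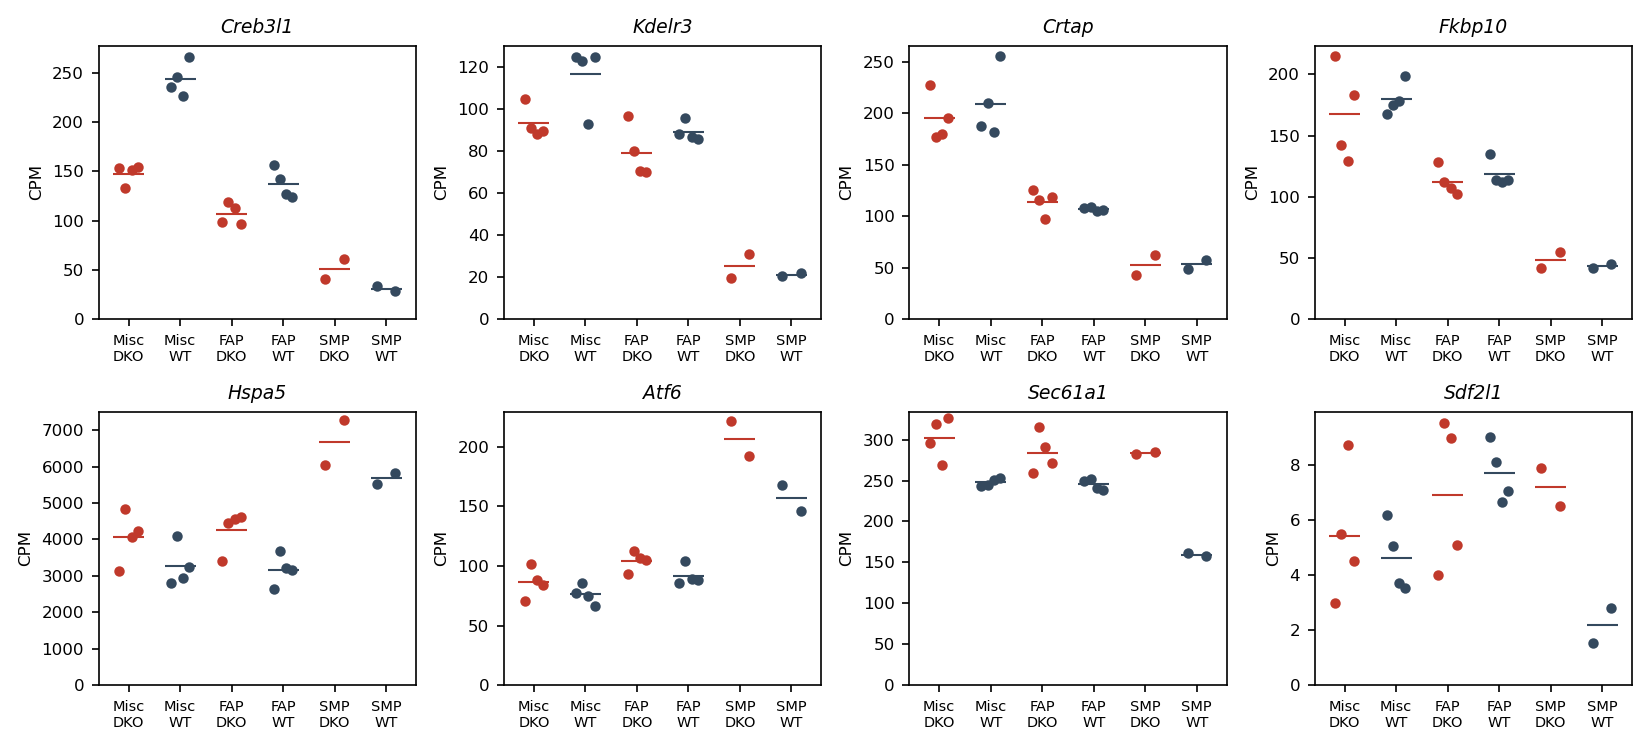
CPM of Creb3l1, Kdelr3, Crtap, Fkbp10, Hspa5, Atf6, Sec61a1 and Sdf2l1 in the 6 groups. Each point is a library and each line the group mean, with DKO in red and WT in dark blue; Creb3l1 is lower in DKO than WT in Misc and FAP, and Hspa5 and Atf6 are highest in SMP.

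Beyond the 42, 115 other genes of the same pathways were tested. In Misc 4 were higher and 10 lower in DKO, or 12.2% against 18.7% of all genes. In FAP 7 were higher and 3 lower, or 8.7% against 10.7%. In SMP 33 were higher and 2 lower, or 30.4% against 23%. Their medians were −0.05 in Misc, 0.03 in FAP and 0.22 in SMP.

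Enzymes that modify collagen in the ER changed in Misc DKO in 10 of 16 cases, 3 higher and 7 lower, or 62.5% against 18.7% of all genes. In FAP 4 of 16 passed (3 higher and 1 lower), or 25% against 10.7%, and in SMP 2 of 16, both higher, or 12.5% against 23%. Plod2, the lysyl hydroxylase of collagen telopeptides, averaged 298 CPM in Misc DKO and 182 CPM in Misc WT (0.71 ± 0.13, edgeR adjusted p = 0.00025), and P4ha3, a prolyl 4-hydroxylase subunit, 14.9 CPM in Misc DKO and 4.96 CPM in Misc WT (1.57 ± 0.30, edgeR adjusted p = 0.00075). Plod3 rose by 0.40 ± 0.09. Colgalt2, a collagen galactosyltransferase (−0.58 ± 0.18), Fkbp14, an isomerase (−0.57 ± 0.13), and Plod1, the lysyl hydroxylase of the helix (−0.49 ± 0.14), were lower. In FAP, Plod2 averaged 189 CPM in FAP DKO and 112 CPM in FAP WT (0.75 ± 0.13, edgeR adjusted p = 0.00034), P4ha3 rose by 1.91 ± 0.30 and Plod1 was lower (−0.59 ± 0.14). Leprel1, a prolyl 3-hydroxylase, averaged 10.6 CPM in FAP DKO and 4.1 CPM in FAP WT (1.38 ± 0.16, edgeR adjusted p = 2e-06), but 112 CPM in Misc DKO and 146 CPM in Misc WT (−0.39 ± 0.11, 0.015). The coat and Golgi genes Copa (−0.30 ± 0.08), Golgb1 (−0.32 ± 0.10) and Golga2 (−0.25 ± 0.08) fell in Misc.

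In SMP the called shares of the lists other than collagen modification lay between 25% for ER exit and 40% for folding, against 23% of all genes. Of 20 further folding genes 8 rose, among them Manf, a secreted ER stress protein, with 218 CPM in SMP DKO and 103 CPM in SMP WT (1.08 ± 0.27, edgeR adjusted p = 0.0087). Hyou1, an Hsp70 of the ER, averaged 397 CPM in SMP DKO and 206 CPM in SMP WT (0.95 ± 0.25, edgeR adjusted p = 0.0099), and Creld2 rose by 0.90 ± 0.27. Of 22 further genes of translocation and glycosylation 6 rose and 1 fell, or 31.8%. Srprb, the membrane subunit of the signal recognition particle receptor, rose by 0.89 ± 0.14 (edgeR adjusted p = 7.3e-05), and Srp54a fell (−0.63 ± 0.19). Of 11 further degradation genes 4 rose, or 36.4%, among them Edem1 (0.62 ± 0.13), Syvn1 (0.56 ± 0.18) and Derl1 (0.55 ± 0.13). Of 20 further ER exit genes 5 rose, and of 12 COPI and Golgi genes 3 rose and 1, Golgb1, fell (−0.51 ± 0.14), together 33.3%. Of 14 sensors and targets of the PERK and Atf4 arm 5 rose, or 35.7%, with a list median of 0.10 and 7 of 14 genes above 0. Those that rose included Trib3, a pseudokinase, by 2.01 ± 0.42 (6.51 CPM in SMP DKO and 1.62 CPM in SMP WT), Asns, asparagine synthetase, by 1.48 ± 0.30, and Chac1, a glutathione-degrading enzyme, by 1.13 ± 0.40.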

How the data were processed

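The deposited values are raw exon counts by gene, as the authors left them. Per the design text in the labels, the reads were aligned with OSA to mm10 under RefSeq annotation, and the submitters' processing notes name DESeq2. The sources used here state neither the counter nor its strand setting, so reads of overlapping or antisense genes are not separable.

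Of 24393 genes, 24312 matched RefSeq by identifier, and 52 blank or date-like symbols were restored from them. No column was left out. Genes were kept by edgeR's filterByExpr (minimum count 10, minimum total 15), leaving 14179, and scaled by TMM. CPM uses those scaled totals. A robust quasi-likelihood model in edgeR 4.0.16 (R 4.3.3) was fitted to all 20 libraries in 6 groups without a block. P-values were adjusted by Benjamini-Hochberg over the genes of each comparison and called below 0.05. Standard errors are the absolute log2 fold change over the square root of F. The step was also run on simulated counts, in which all groups shared a common mean outside the changed genes and no libraries were paired. These data differ from that setting in both respects, so the run does not show how the step behaves on them. Depth, 5826000 to 17730111 counts a library, limits the low genes most.

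The members, the lists and the rule for named genes were chosen with earlier results of these data known. That rule takes Hspa5, Serpinh1, Creb3l1, Xbp1 and Ddit3 always, the up to 6 members each way with the largest called change per DKO comparison, 4 each way between populations when called in both genotypes, 4 per difference of DKO changes, and up to 3 each way per further list; Canx, Sec24d, Leprel1 in Misc and others were added after their values were seen. Fibrillar collagens were 11 genes and further secreted matrix 69. Transcript lengths came from GENCODE M21.

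Whether replicate numbers pair libraries was checked by correlating deviations from group means. In DKO, the 4 same-numbered FAP and Misc libraries had r between 0.22 and 0.38. In WT, r lay between 0.2 and 0.26. Libraries with different numbers had r between −0.23 and 0.1, so these populations were paired within genotype. No label states the pairing. Alternatives were DESeq2 size factors, scaling without matrix genes, a replicate block, no filter, only the compared groups, the DESeq2 1.42.0 Wald test, other thresholds and each library left out.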

Additional observations from a re-analysis of the deposited data

Results flagged for a closer look

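Among 116 groups of 4 libraries looked at for a library far from the others, 9 held one, where chance gives about 5.8 at 1 in 20. FAP DKO replicate 1 was low in Hspa5, at 3410 CPM beside 4440 to 4620 CPM in the other libraries of its group, and in Canx, at 305 CPM beside 367 to 378 CPM. FAP DKO replicate 2 was high in Ssr2, at 95.4 CPM beside 80.7 to 82.9 CPM. FAP WT replicate 1 was high in Fkbp10, at 135 CPM beside 112 to 114 CPM. Misc DKO replicate 2 was low in Creb3l1, at 133 CPM beside 151 to 154 CPM. Misc WT replicate 3 was low in Kdelr3, at 93.1 CPM beside 123 to 125 CPM, in Rpn2, at 273 CPM beside 318 to 325 CPM, and in Ssr2, at 77 CPM beside 88.7 to 89.8 CPM. The fibrillar collagen sum of Misc WT replicate 4 was high, at 120646 CPM beside 98371 to 101641 CPM.

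The change with DKO differed between populations in 22 tests by edgeR. Between FAP and SMP the log2 difference was −1.92 for Sdf2l1, −0.72 for Pdia4, −0.85 for Pdia6, −0.64 for Serpinh1 and −0.62 for Sec61a1. It was −0.73 for Ssr2, −0.77 for Rpn1, −0.58 for Ddost, −0.55 for Dad1, −0.53 for Sec13 and −1.08 for Creb3l1. Between Misc and SMP it was −0.74 for Pdia4, −0.84 for Pdia6, −0.54 for Sec61a1, −0.50 for Ssr3 and −0.68 for Spcs2. It was −0.72 for Rpn1, −0.60 for Ddost, −0.52 for Sec13, −0.62 for Kdelr2, −1.44 for Creb3l1 and −0.58 for Herpud1. Edge cases were Ssr3 (adjusted p = 0.047) and Sec13 (0.042) between Misc and SMP, and Serpinh1 between FAP and SMP (0.041).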

How the results depend on the processing

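Of 135 counts and sums under alternatives other than left-out libraries, 111 stayed within the limits set for them and 24 moved; the cause was not tested. Counts of members called were as follows. Without the filter, 4 passed for Misc against FAP in DKO and 7 for the difference of FAP and SMP. With only the compared groups, 6 passed for DKO in FAP, 8 for DKO in SMP, 4 and 17 for Misc against FAP in DKO and WT, and 4 for the difference of Misc and SMP. The replicate block within genotype gave 15 and 19 for Misc against FAP in DKO and WT, and 1 for the difference of their DKO changes. The replicate number as a block over all groups moved no count by over 1.5 times. The DESeq2 Wald test gave 6 for DKO in FAP. An adjusted p below 0.01 left 0 for DKO in FAP, 1 in Misc, 4 and 7 for Misc against FAP in DKO and WT, and 4 and 2 for the differences of FAP and of Misc from SMP. A 1.5-fold minimum left 0 for DKO in FAP, 1 in Misc, 11 in SMP, 1 and 3 for Misc against FAP in DKO and WT, and 7 for the difference of Misc and SMP. DESeq2 size factors gave for the matrix load, all matrix genes: SMP WT at 34340 CPM.

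Leaving out each library gave 2 to 10 calls for DKO in Misc, 1 to 5 in FAP and 9 to 17 in SMP. It gave 5 to 9 and 8 to 12 for Misc against FAP, 24 to 28 and 29 to 32 for FAP against SMP, and 25 to 28 and 28 to 33 for Misc against SMP, in DKO and WT. For the differences of DKO changes it gave 0 to 0 between Misc and FAP, 3 to 13 between FAP and SMP and 2 to 13 between Misc and SMP. Of 1016 values of named members under alternatives, 925 kept direction and call, 75 lost the call, 14 gained one and 2 turned sign. Those 2 were for Serpinh1: DKO against WT in FAP was at −0.047 without FAP DKO replicate 2 and −0.008 without FAP WT replicate 4, in a range up to 0.137 without FAP WT replicate 1. With 2 libraries a group, SMP limits precision most.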

Other observations

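Libraries numbered 1 were the lowest of their group for Hspa5, Dnajb9 and Herpud1 in Misc DKO, Misc WT, FAP DKO and FAP WT alike, which held for 3.02% of all genes tested. Libraries numbered 2 were the highest of all 4 groups for Dnajb9, Atf6 and Ddit3, which held for 0.797% of all genes. This was noticed in the data and carries no test.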
